A study of Menidia menidia with 24 samples.

Results

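The 3 transcripts described here encode the pore-forming alpha-1 subunits of voltage-gated calcium channels in the Atlantic silverside (Menidia menidia), and were listed in the study's annotation as CAC1A (mme15061), CAC1D (mme03240) and CAC1E (mme13315). They were taken by identifier, 3 of 20210 genes in the count files, and all 3 were among the 17262 transcripts that passed the filter on low counts. The symbols were readable only for transcripts that the study had called in CH versus CC, so the transcripts were chosen by their difference between CH and CC. That comparison is therefore given as a description, without a test. No sequence of these transcripts was used here, so the annotation was taken as given.

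RNA from 24 single whole larvae was sequenced at 19 days post-fertilization, 6 in each of 4 groups named by parental and then offspring treatment, where C is control and H is combined hypoxia and acidification (HypOA). CC and CH larvae descended from wild adults held in control water, and HC and HH larvae from wild adults held under night-time HypOA before they spawned. CC and HC larvae were reared at 100% dissolved oxygen and 600 µatm pCO2, and CH and HH larvae at 35% dissolved oxygen and 2500 µatm pCO2, all at 20°C as the sample labels give it. The methods of the study state somewhat different levels of oxygen, pCO2 and temperature. Gametes were pooled within each parental treatment, so parental treatment and parental pool cannot be told apart, and the larvae were taken as pairs from shared rearing containers, which the labels do not identify. All tests, the exact permutation tests included, treat the 6 larvae of a group as independent although fewer containers stand behind them, so their p-values may be too small. All larvae had the same age in days, so a difference in level between rearing conditions cannot be told apart from a difference in developmental stage.

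Voltage-gated calcium channels open when the cell membrane depolarizes and let calcium into the cell, where it triggers transmitter release, contraction and gene expression. The alpha-1 subunit forms the pore and carries the voltage sensor, and sets the class of current. In vertebrates, CAC1A forms the P/Q-type channel that triggers transmitter release at many fast synapses, CAC1D forms an L-type channel of neurons, endocrine cells, hair cells and cardiac pacemaker cells, and CAC1E forms the R-type channel of neurons and endocrine cells. Beta, alpha-2/delta and gamma subunits assemble with the pore or regulate its traffic and gating.

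Levels are CPM, the read count of a transcript relative to all reads of the larva on transcripts that passed the filter, scaled by TMM factors. The larvae had 11688851 to 16120500 counted reads (median 12722156.5), and each alpha-1 transcript had at least 102 reads in every larva. Gene lengths were not used here, so levels of different transcripts are not compared.

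CAC1A had its lowest mean in the CC larvae and its highest in the HH larvae, whereas the median of CH was slightly above that of HH. Its level in CC ranged from 35.3 to 50.2 CPM with a median of 37.2 (mean±s.d. 39.7±5.78, n=6 larvae). In HC it ranged from 41.7 to 55.8 CPM with a median of 46.3 (48.2±6.06, n=6). All 6 HC larvae exceeded the CC median, as in 10% of all transcripts, and the ranges of CC and HC overlapped. In CH it ranged from 43.1 to 67.3 CPM with a median of 58.8 (57.2±8.17, n=6). In HH it ranged from 54.2 to 81.0 CPM with a median of 58.3 (61.9±9.90, n=6). All 6 HH larvae lay above all 6 CC larvae, whereas the CH range overlapped that of CC, through CH 2 at 43.1 CPM, and that of HC.

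CAC1D, the L-type subunit, had the same order of group means. It ranged in CC from 24.1 to 40.2 CPM with a median of 28.7 (29.3±5.82, n=6) and in HC from 29.8 to 38.6 CPM with a median of 34.2 (33.9±3.78, n=6). In CH it ranged from 30.9 to 51.1 CPM with a median of 39.9 (40.7±7.13, n=6) and in HH from 36.5 to 53.0 CPM with a median of 40.9 (42.0±6.11, n=6). Every pair of groups overlapped. The highest CC larva, CC 5, reached 40.2 CPM, above the median of CH and close to that of HH.

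CAC1E, the R-type subunit, differed from the others in that its mean was highest in CH. It ranged in CC from 9.14 to 12.9 CPM with a median of 10.5 (10.6±1.39, n=6) and in CH from 14.2 to 20.2 CPM with a median of 18.2 (17.9±1.97, n=6), so that these groups did not overlap. In HC it ranged from 9.60 to 15.7 CPM with a median of 14.3 (13.8±2.23, n=6). In HH it ranged from 13.6 to 21.9 CPM with a median of 15.1 (16.95±3.75, n=6). Within HH, larvae HH 1 and HH 6 stood at 21.6 and 21.9 CPM and the other 4 between 13.6 and 15.2 CPM.

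**Figure D1:**
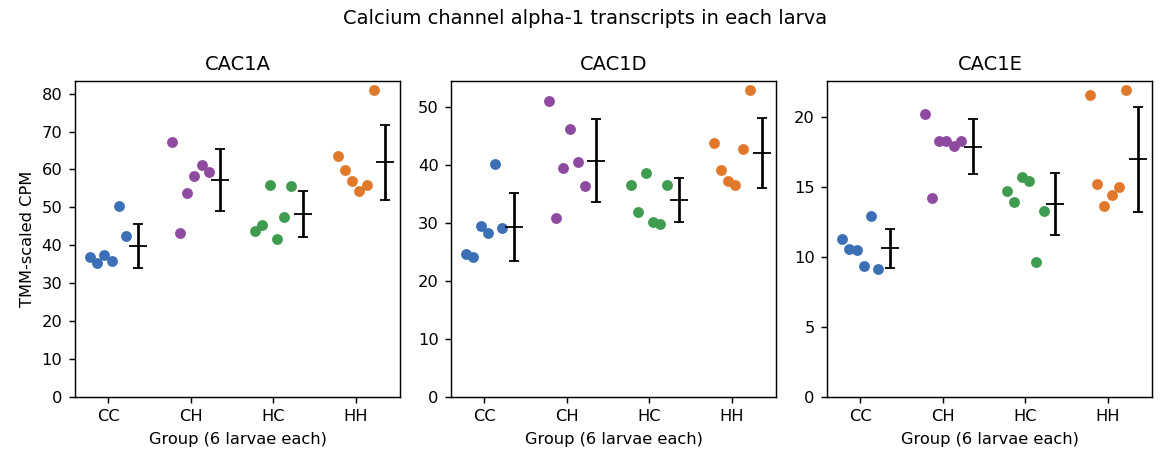
TMM-scaled CPM of CAC1A, CAC1D and CAC1E (vertical axes, each starting at 0) in each of 6 larvae per group. Points are larvae in the order of their labels, and black bars are means with s.d.; CC has the lowest mean in each panel, and larvae CC 5, CH 1, HC 3 and HH 6 are the highest of their groups in all 3 panels.

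On the log2 scale, the order of means was CC, HC, CH, HH for CAC1A and CAC1D and CC, HC, HH, CH for CAC1E. Mean log2 CPM of the HC larvae lay 54.1% of the way from CC to CH for CAC1A, 47.2% for CAC1D and 48.6% for CAC1E. For HH the position was 122%, 111% and 87.5%, in the same order. The distance from CC to CH is the contrast used for choosing, and the choice alone can place another group between them. These positions are therefore a description, and no effect of parental exposure is read from them. The HH mean of CAC1A included HH 6, the highest larva, and without it HH exceeded CH by 0.02 in the edgeR fit. No difference between neighbours in these orders passed the edgeR test at an FDR of 0.05.

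Between the offspring of control parents, the comparison that chose the transcripts, CH exceeded CC by 0.53 for CAC1A, 0.48 for CAC1D and 0.75 for CAC1E on the log2 scale. Their 95% intervals, computed from the edgeR fit, were 0.28 to 0.77, 0.21 to 0.74 and 0.46 to 1.04. These are folds of 1.44, 1.39 and 1.68. Over all transcripts tested, edgeR called 4.99% higher and 4.26% lower in CH. Of CAC1A, CAC1D and CAC1E, CAC1E alone had no overlap between these groups, a trait of 2.01% of all transcripts in this direction. Since the rule used this contrast, nothing is read from these values.

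HH versus HC asks the same question in the offspring of HypOA parents, and is the comparison between groups that shares no larva with the contrast used for choosing. It is not free of all sharing. In the study each tank held offspring of both parental groups, and HypOA water came from a common mixing tank. HC larvae could thus share tanks with CC larvae and HH larvae with CH larvae. The edgeR dispersion was also estimated over the larvae of all groups. All 3 alpha-1 transcripts were higher in HH in mean level, and none passed the FDR of 0.05. CAC1A was 0.36 higher on the log2 scale (s.e.m. 0.12, 95% interval 0.11 to 0.60, edgeR FDR=0.342). CAC1D was 0.31 higher (s.e.m. 0.13, 95% interval 0.04 to 0.58, edgeR FDR=0.515) and CAC1E 0.30 higher (s.e.m. 0.14, 95% interval 0.01 to 0.59, edgeR FDR=0.591).

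The edgeR test called 0.0232% of all transcripts in HH versus HC (4 transcripts) and 0 of the 3 alpha-1 transcripts. By unadjusted p of the edgeR test all 3 fell below 0.05, as did 3.82% of all transcripts in the higher direction. The share among the transcripts called higher in CH versus CC, which compares the same rearings, was not counted. The shares over all transcripts therefore do not set the 3 apart from other transcripts chosen that way. DESeq2 called 64 transcripts and limma-voom 4, without any of the 3. All 6 HH larvae lay above the HC median for CAC1A and CAC1D and 5 of 6 for CAC1E, and over all transcripts 7.77% had all 6 larvae above it. The groups overlapped for each of the 3, and did not in this direction for 0.4% of all transcripts. An exact two-sided permutation test on log2 CPM, run for the 3 transcripts without adjustment, gave a difference of 0.35 for CAC1A (p=0.0108), 0.30 for CAC1D (p=0.0152) and 0.29 for CAC1E (p=0.143), where the smallest p that 6 against 6 larvae allow is 0.00216.

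HH versus CC sets exposure in both generations beside exposure in neither. It shares the CC larvae with the contrast used for choosing, so it is not independent of the choice. All 3 alpha-1 transcripts were called higher, as were 5.21% of all transcripts tested, with 3.59% called lower. CAC1A was 0.64 higher on the log2 scale (s.e.m. 0.12, edgeR FDR=0.00228), CAC1E 0.67 (s.e.m. 0.14, edgeR FDR=0.00477) and CAC1D 0.52 (s.e.m. 0.13, edgeR FDR=0.0143). CAC1A and CAC1E did not overlap between these groups, which 2.87% of all transcripts shared in this direction. The CAC1D call was lost without HH 6, where its difference was 0.44 and its edgeR FDR 0.0528. Without this larva edgeR called 821 of all transcripts in HH versus CC in place of 1520.

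HC versus CC asks whether parental exposure alone went with a difference in control-reared larvae, and also shares the CC larvae. CAC1A was 0.28 higher in HC (s.e.m. 0.12, edgeR FDR=0.308), CAC1D 0.21 higher (s.e.m. 0.13, edgeR FDR=0.491) and CAC1E 0.37 higher (s.e.m. 0.14, edgeR FDR=0.252). The edgeR test called 0% of all transcripts here, and 6.9% were higher at an unadjusted p below 0.05 in that test, among them CAC1A and CAC1E but not CAC1D. DESeq2 called 137 transcripts and limma-voom 0, without any of the 3.

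Among larvae reared under HypOA, HH versus CH gave no call for an alpha-1 transcript against a background of 0.0174%, and the differences were small beside their intervals. They were 0.11 for CAC1A (95% interval -0.13 to 0.36), 0.05 for CAC1D (-0.22 to 0.31) and -0.08 for CAC1E (-0.36 to 0.21), with edgeR FDR values of 0.697, 0.905 and 0.843. The sign for CAC1D rested on single larvae, with -0.02 without CH 2 and -0.03 without HH 6. DESeq2 called 216 transcripts and limma-voom 2, with none of the 3. HH versus CH shares the CH larvae with the contrast used for choosing, so it is not independent of the choice.

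CH versus HC sets offspring exposure beside parental exposure. It shares the CH larvae with the contrast used for choosing, so it is not independent of the choice. CAC1A was 0.24 higher in CH (edgeR FDR=0.332), CAC1D 0.26 (edgeR FDR=0.338) and CAC1E 0.38 (edgeR FDR=0.207). None of them was called, against 0.29% of all transcripts called in either direction.

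The interaction, that is the HH minus HC difference less the CH minus CC difference, was -0.17 for CAC1A (95% interval -0.52 to 0.18, edgeR FDR=0.758) and -0.17 for CAC1D (-0.55 to 0.21, edgeR FDR=0.784). For CAC1E it was -0.45 (-0.86 to -0.04, edgeR FDR=0.435). The response of the alpha-1 transcripts to rearing was thus smaller in the offspring of HypOA parents in value, without passing the test. The interaction contains the contrast used for choosing, in which the difference had to be large. The edgeR test called 0% of all transcripts for it, and 10.7% had an unadjusted p below 0.05 in either direction, while DESeq2 called 4 and limma-voom 0.

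The parental difference averaged over both rearings does not use the CH minus CC difference, although it uses the CC and CH larvae that the choice used. It was 0.20 for CAC1A (s.e.m. 0.08, edgeR FDR=0.221), 0.13 for CAC1D (s.e.m. 0.09, edgeR FDR=0.490) and 0.15 for CAC1E (s.e.m. 0.10, edgeR FDR=0.460). None was called, against 0.649% of all transcripts.

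**Figure D2:**
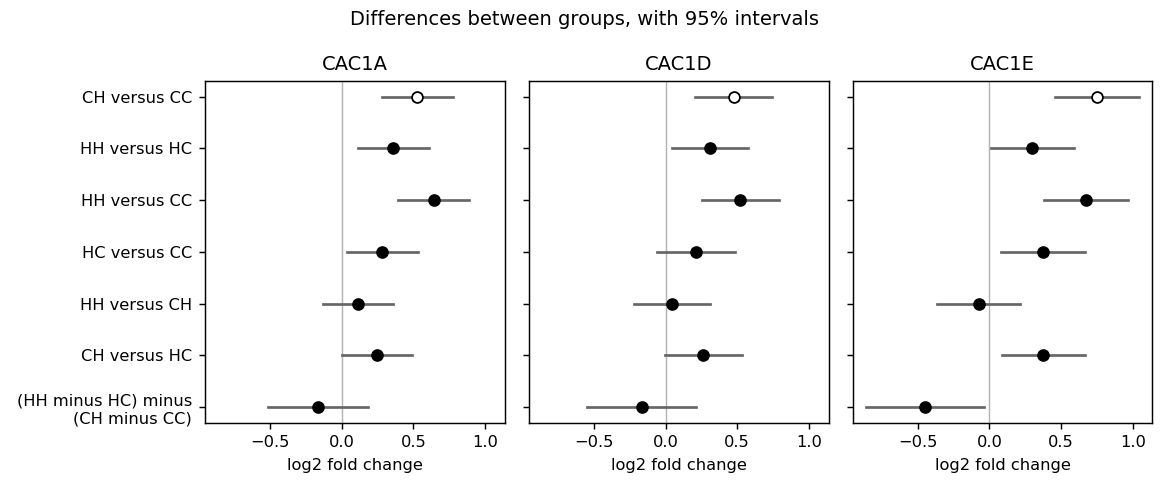
Log2 fold changes (horizontal axis, 0 marked) of CAC1A, CAC1D and CAC1E in 6 comparisons between groups and in the interaction, with 95% intervals computed from the edgeR fit. The open point is CH versus CC, which chose the transcripts; the intervals of HH versus HC lie above 0 for all 3 transcripts although none passes the FDR, and those of HH versus CH include 0.

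The larvae were sequenced whole, and fewer cells of a type cannot be told apart from less RNA per cell in such samples. Neuronal marker transcripts, like the alpha-1 transcripts, had their lowest levels in CC. Both came from transcripts called higher in CH than in CC, and this choice favours a low level in CC. The list held 10 transcripts of 8 symbols, including ELAV2, an RNA-binding protein of neurons, and VISL1, a neuronal calcium sensor. Their summed level was 432 to 664 CPM in CC, 606 to 738 in HC, 705 to 875 in CH and 698 to 920 in HH, and no marker was at 0 in any group. In HH versus HC, 0 of the 10 were called and all 10 were positive, as were 49.7% of all transcripts, with a median log2 fold change of 0.21 beside -0.00 over all transcripts. By unadjusted p of the edgeR test below 0.05, 3 of the 10 were higher, as were 3.82% of all transcripts. The shares among all transcripts called higher in CH versus CC were not counted. These values therefore do not set the markers apart from other transcripts chosen that way. ELAV2 was 0.27 higher (edgeR FDR=0.469) and VISL1 (mme09984) 0.28 higher (edgeR FDR=0.537).

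The level of each alpha-1 transcript was also set beside the summed neuronal markers. Both were chosen by CH versus CC, so nothing is read from the ratio in comparisons that use those larvae. The log2 ratio of CAC1A ranged from -3.86 to -3.55 in CC and from -4.04 to -3.63 in HC, the control-reared larvae. Under HypOA rearing it ranged from -4.24 to -3.70 in CH and from -3.72 to -3.50 in HH. All 4 groups overlapped in it.

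In HH versus HC, which shares no larva with the choosing contrast, the ratio of CAC1A was 0.19 higher in HH (exact two-sided permutation test, p=0.0173, n=6 and 6). For CAC1D it was 0.14 higher (exact permutation p=0.0498) and for CAC1E 0.12 higher (exact permutation p=0.442). These are unadjusted values of 3 tests. The CAC1D value passed 0.05 narrowly and did not without any single one of HC 1, HC 2, HC 4, HC 5, HH 1, HH 2, HH 5 and HH 6, where the difference was between 0.09 and 0.15, nor with the mean of log2 CPM over the markers in place of their sum (0.12, exact permutation p=0.136).

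**Figure D3:**
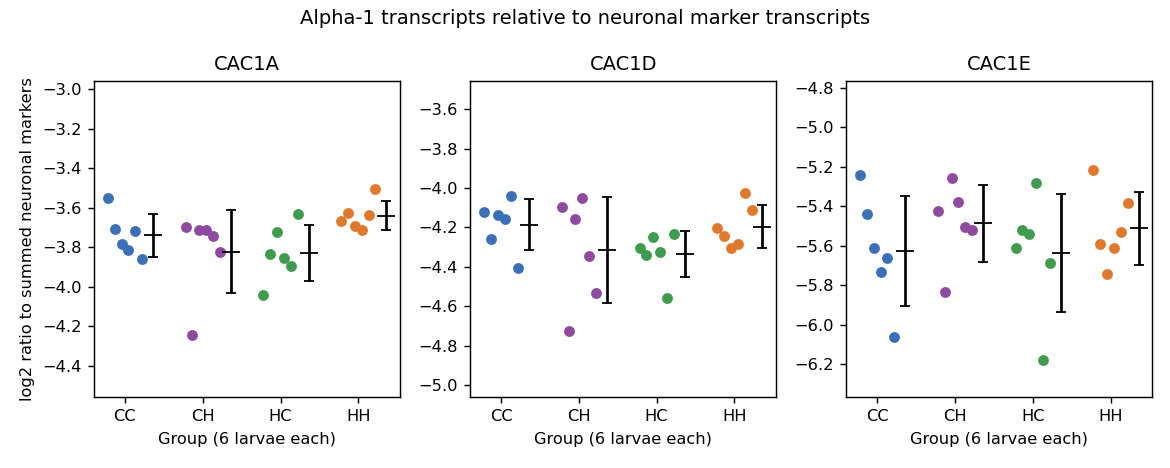
Log2 ratio of CAC1A, CAC1D and CAC1E to the summed CPM of 10 neuronal marker transcripts (vertical axes, each spanning 1.6 log2 units) in each of 6 larvae per group. Points are larvae and black bars are means with s.d.; the groups overlap in every panel, CH 2 is the lowest larva of its group in all 3, and HH has the highest mean for CAC1A.

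Marker transcripts of other tissues differed in level between groups as well. Retina markers summed to 42.1 to 70.3 CPM in CC, 61.3 to 79.7 in HC, 76.5 to 95.001 in CH and 59.4 to 75.2 in HH. Skeletal and cardiac muscle markers summed to 4711 to 7417 CPM in CC, 2916 to 6558 in HC, 2077 to 4331 in CH and 2117 to 5354 in HH. Exocrine pancreas markers summed to 28.5 to 1279 CPM in CC, 28.7 to 175 in HC, 9.22 to 42.0 in CH and 12.9 to 28.6 in HH. The CC larvae thus had the lowest mean of neuronal and retinal markers and the highest of muscle and pancreas markers. No marker of these lists was at 0 in any group, and their part in the alpha-1 values was not tested. In HH versus HC, 0 of 6 retina, 0 of 13 muscle and 0 of 12 pancreas markers were called, with median log2 fold changes of 0.03, -0.23 and -1.80. By unadjusted p of the edgeR test below 0.05, 0 retina, 5 muscle and 6 pancreas markers were lower and 0 higher. Of all transcripts, 8.24% had such a p in either direction. The 2 transcripts of each list with the smallest unadjusted p are given by their log2 fold changes. In the retina they were PCARE (0.16, edgeR FDR=0.902) and TULP1 (-0.19, edgeR FDR=0.909). In muscle they were the myosin light chain MLRV (-0.89, edgeR FDR=0.346) and the cardiac troponin TNNT2 (-0.43, edgeR FDR=0.416). In the pancreas they were the amylase AMYP (-1.85, edgeR FDR=0.308) and the trypsin TRY3 (-3.30, edgeR FDR=0.328). All symbols in these lists, neurons included, came from transcripts called in CH versus CC. The shares in HH versus HC among all transcripts so called were not counted.

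The alpha-1 transcripts also varied together among larvae of 1 group. Deviations of log2 CPM from the group means correlated over the 24 larvae between CAC1A and CAC1D, with r=0.84 and rho=0.74 (100000 permutations within groups, p=4e-05 and 2e-04, adjusted over 3 pairs 0.00012 and 6e-04). The correlation had the same sign in each group, at 0.90 for CC larvae, 0.67 for HC, 0.85 for CH and 0.91 for HH, and was 0.76 without HH 6 and CC 5, the larvae farthest from the median of CAC1A. CAC1D and CAC1E correlated with r=0.63 and rho=0.58 (permutation p=0.00073 and 0.00484, adjusted 0.0011 and 0.00726), and r was 0.53 without CC 5 and CH 2.

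CAC1A and CAC1E had the weakest relation, with r=0.56 and rho=0.46 (permutation p=0.00695 and 0.0334, the same when adjusted). It was -0.04 within HC, against 0.53 in CC, 0.94 in CH and 0.84 in HH. Without HH 6 and CC 5 r was 0.38. With deviations taken again from the means of a fit without these larvae it was 0.34 (permutation p=0.138), so its passing 0.05 rested on them together. With each larva left out in turn r was 0.45 to 0.64 (highest permutation p=0.0446). The transcripts of a larva share its depth of sequencing and its tissue composition. The r with the summed neuronal markers was 0.71 for CAC1A, 0.66 for CAC1D and 0.27 for CAC1E. In the same order, r with the summed muscle markers was -0.13, 0.16 and -0.18, and with the summed pancreas markers -0.09, -0.28 and 0.05. With counted reads it was -0.30, -0.33 and -0.32. These are descriptions over 24 larvae, and the part of composition in the relations was not tested.

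**Figure D4:**
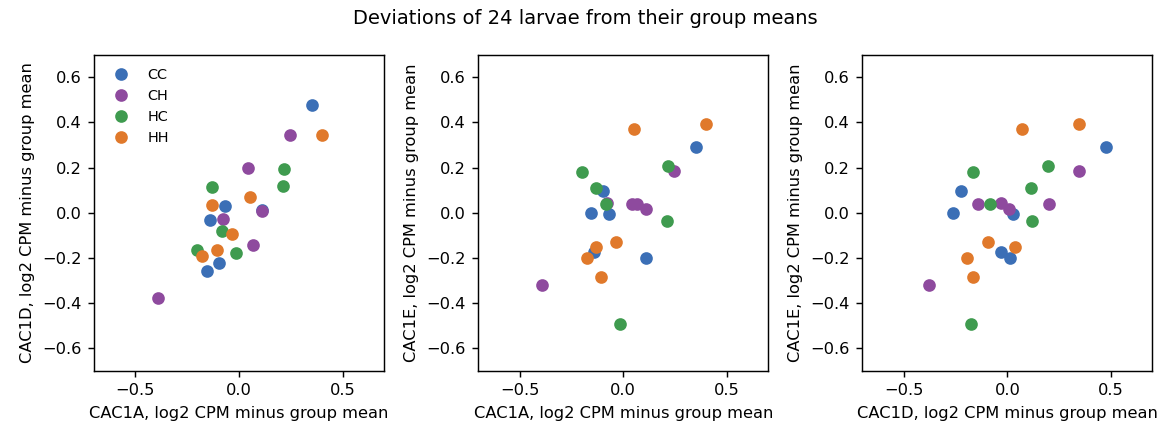
Deviations of log2 CPM from the group mean in 24 larvae, for CAC1A against CAC1D, CAC1A against CAC1E and CAC1D against CAC1E. Points are larvae, coloured by group; the points of CAC1A and CAC1D follow a line most closely (r=0.84), CC 5 and HH 6 lie at the upper right of every panel and CH 2 at the lower left.

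Ratios between alpha-1 transcripts within a larva stayed close to constant for CAC1A and CAC1D. The mean log2 ratio of CAC1A to CAC1D was 0.45±0.12 in CC, 0.50±0.14 in HC, 0.49±0.14 in CH and 0.55±0.09 in HH (s.d., n=6 each). That of CAC1A to CAC1E was 1.89±0.18 in CC, 1.81±0.32 in HC, 1.67±0.08 in CH and 1.87±0.17 in HH. That of CAC1D to CAC1E was 1.44±0.23 in CC, 1.30±0.23 in HC, 1.17±0.14 in CH and 1.32±0.17 in HH. CAC1E thus took its largest share beside either of the others in CH, the group of the choosing contrast, and in these ratios all groups overlapped. These ratios carry the unknown lengths of the transcripts, so only their differences between groups can be read.

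Of all 17261 other transcripts, those whose within-group deviations were most like CAC1A were mme04641 (r=0.87 over 24 larvae), SCN8A (0.87), the pore-forming subunit of a neuronal sodium channel, CAC1D itself (0.84), the Di-Ras GTPase DIRA1 (0.84) and VISL1 (mme09984, 0.83). For CAC1D they were mme05132 and mme04292 (both 0.86), mme04264 and mme02247 (both 0.85) and CCG3 (0.85), a gamma subunit of the calcium channel family. For CAC1E the values were lower. They were 0.77 for NSMF, a neuronal messenger between synapse and nucleus, 0.76 for NEC1, the prohormone convertase of neuroendocrine cells, 0.74 for mme11341 and mme12857 and 0.73 for mme13472. The identifiers given alone had no symbol in the rows read. CAC1D ranked 3rd among the transcripts most like CAC1A, and CAC1A 9th among those most like CAC1D, whereas CAC1E ranked 440th for CAC1A and 370th for CAC1D. Among the transcripts most like CAC1E, CAC1D ranked 63rd and CAC1A 192nd. Over all transcripts the median r with each of the 3 was -0.00 to -0.01. The 95th percentile of r was 0.48 for CAC1A, 0.53 for CAC1D and 0.42 for CAC1E.

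A further 10 transcripts carried symbols of voltage-gated calcium channel subunits, and their symbols too came from transcripts called in CH versus CC. They were the N-type alpha-1 subunit CAC1B, which triggers transmitter release beside CAC1A, 5 alpha-2/delta transcripts (CA2D1 with 2, CA2D2 with 2 and CA2D3), which bring the pore to the membrane, the beta subunit CACB4, which binds the pore inside the cell, and the gamma-family members CCG3, CCG5 and CCG8, known in mammals as partners of AMPA-type glutamate receptors. Reads of near-identical copies could be split between the transcripts of CA2D1 or of CA2D2, and between any alpha-1 subunit and a duplicate, in a way the counts do not show.

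CAC1B, too, had its lowest median in CC. Control-reared larvae had 6.58 to 9.59 CPM in CC (median 8.53) and 8.83 to 11.3 CPM in HC (median 10.9). Larvae reared under HypOA had 13.1 to 15.2 CPM in CH (median 14.5) and 9.71 to 17.5 CPM in HH (median 13.8). All HH larvae exceeded all CC larvae, which 2.87% of all transcripts shared, and the CC larvae belong to the choosing contrast. Of the 6 HH larvae, 5 exceeded the HC median, and over all transcripts 7.77% had all 6 above it. It was 0.42 higher in HH than in HC (s.e.m. 0.13, edgeR FDR=0.308).

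The further subunit transcripts had mostly positive differences, with an exception in CA2D1. In the choosing contrast 9 of the 10 further transcripts were higher in CH and 1 lower. In HH versus CC, which shares CC, 9 of 10 were called higher and 0 lower, against 5.21% and 3.59% of all transcripts. In HH versus HC, 0 of 10 were called, 9 were positive (49.7% of all transcripts) and 5 had an unadjusted p below 0.05 in the higher direction (3.82% of all), with a median of 0.26 beside -0.00 over all transcripts. The same shares among all transcripts called in CH versus CC were not counted. These values therefore do not set the subunits apart from other transcripts chosen that way. After CAC1B the smallest unadjusted p belonged to CA2D1 (mme02275), 0.37 higher (edgeR FDR=0.396). The others were CA2D3 at 0.41, CCG3 at 0.31, CA2D2 at 0.27 (mme03140) and 0.07 (mme03221), CCG8 at 0.25, CCG5 at 0.21 and CACB4 at 0.05.

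The second CA2D1 transcript, mme17298, went the other way. Control-reared larvae had 52.8 to 102.7 CPM in CC (median 78.3) and 52.3 to 84.3 CPM in HC (median 65.2). Larvae reared under HypOA had 32.7 to 51.2 CPM in CH (median 36.9) and 40.1 to 90.0 CPM in HH (median 55.4). The CH larvae lay below all CC and all HC larvae, and the HH larvae overlapped every group. The choice used the CH and CC larvae, and the share of all transcripts with such a separation in this direction was not counted. Its log2 fold change was -0.99 in CH versus CC, which chose it, and -0.20 in HH versus HC (95% interval -0.58 to 0.17, edgeR FDR=0.856). Its interaction was 0.79 (95% interval 0.26 to 1.32), without passing the edgeR test, and opposite in sign to those of CAC1A, CAC1D and CAC1E. As its rearing difference was negative, this too is a response smaller in value in the offspring of HypOA parents. The interaction contains the contrast that chose this transcript. Its deviations correlated with those of the alpha-1 transcripts at r=0.05, 0.12 and -0.07, whereas those of CA2D2 (mme03140) did at 0.79 for CAC1A, 0.78 for CAC1D and 0.55 for CAC1E.

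**Figure D5:**
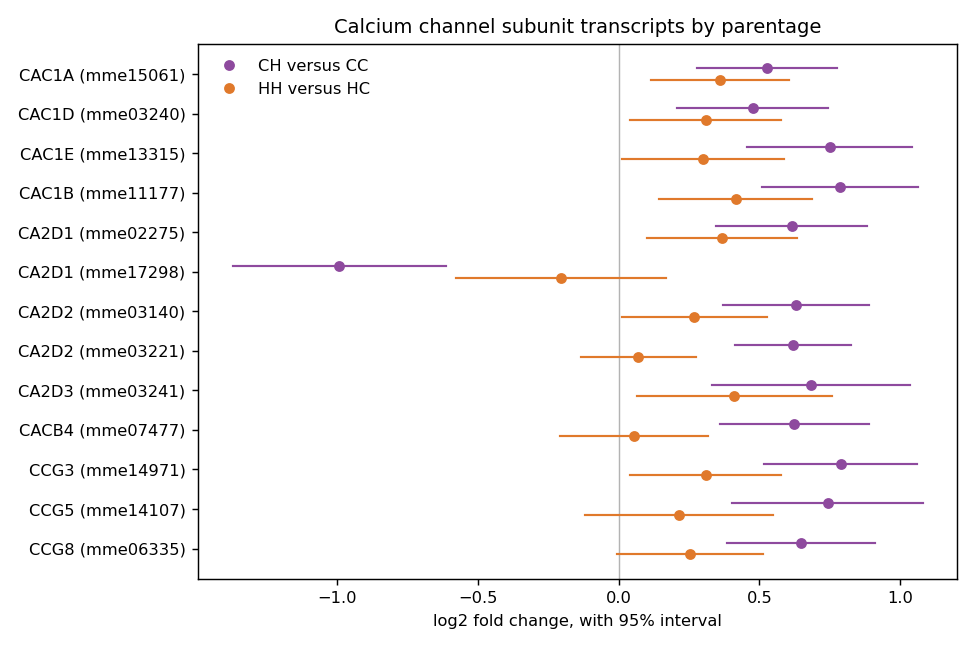
Log2 fold changes (horizontal axis, 0 marked) with 95% intervals computed from the edgeR fit for the 3 alpha-1 transcripts and 10 further calcium channel subunit transcripts, for the CH versus CC and the HH versus HC comparison. CH versus CC chose all 13 transcripts; in HH versus HC 12 of the 13 points lie above 0 and CA2D1 (mme17298) below it.

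Transcripts of the presynaptic release machinery, which calcium entering through CAC1A and CAC1B channels sets off, numbered 23 with 19 symbols, all of them from transcripts called in CH versus CC. In HH versus HC 0 of 23 were called and 21 were positive (49.7% of all transcripts), with 8 higher at an unadjusted p below 0.05 (3.82% of all) and a median of 0.19. The same shares among all transcripts called higher in CH versus CC were not counted. These values therefore do not set the release machinery apart from other transcripts chosen that way. The smallest unadjusted p belonged to SYT2, the calcium sensor synaptotagmin-2, and STXB5 (mme15788), a syntaxin-binding regulator of release. Their log2 fold changes were 0.42 (edgeR FDR=0.308) and 0.39 (edgeR FDR=0.326). In HH versus CC, which shares the CC larvae with the choosing contrast, 17 of 23 were called higher and 0 lower, against 5.21% and 3.59% of all transcripts. The values of CAC1A, CAC1D and CAC1E in HH versus HC, 0.36, 0.31 and 0.30, lay within the range of this list, -0.20 to 0.54.

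Transcripts for calcium release, uptake and extrusion, 11 with 9 symbols, had no common direction and were chosen by the same contrast. In HH versus HC 0 of 11 were called and 5 were positive (49.7% of all transcripts), with a median of -0.06. AT2B2, a calcium pump of the plasma membrane, was 0.31 higher (edgeR FDR=0.469) and RYR1 (mme19877), the calcium release channel of skeletal muscle, had -0.54 (edgeR FDR=0.602). In the choosing contrast 4 of them were higher and 7 lower in CH.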

How the data were processed

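Larval RNA was sequenced from paired-end libraries. The deposited values are raw read counts per transcript entry for each larva, which the authors made by trimming (Fastp in the paper, Trimmomatic in the submitters' processing notes), alignment to a silverside reference genome with STAR 2.6.1d and counting with HTSeq 0.11.1. The library kit was directional. How the counting treated strand and overlaps, and a name of the genome build, were not given in the sources used here, and antisense or duplicated genes may share reads. Left out were ambiguous reads (mean 0.563%), those at several sites (5.32%) and those on no feature (20.8%).

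The 20651 entries were summed to 20210 genes, of which filterByExpr (minimum count 10, minimum total 15) kept 17262. Each alpha-1 transcript had 1 entry. Analyses used R 4.3.3, edgeR 4.0.16, limma 3.58.1 and DESeq2 1.42.0. TMM factors ranged from 0.861 to 1.18. All 24 larvae entered 1 edgeR quasi-likelihood fit (legacy form) with a coefficient per group, with Benjamini-Hochberg adjustment over all transcripts and calls at an FDR of 0.05. Each s.e.m. was obtained as the absolute log2 fold change over the root of its F statistic. A prior count of 2 entered log2 CPM. Exact permutation tests were two-sided. No larvae of a group had counts alike within sampling noise. Precision rests on 6 larvae per group and 11688851 to 16120500 reads per larva, and the code was tested on simulated data. There, 18% of simulated 1.5-fold changes and 70% of 2-fold changes in HH versus HC were called. The changed transcripts were drawn at random from all those tested, so these rates are not specific to the alpha-1 transcripts. The folds of CAC1A, CAC1D and CAC1E in HH versus HC were 1.28, 1.24 and 1.23. A missing call in HH versus HC does not show that a difference is absent.

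The alpha-1 transcripts and all lists were chosen with earlier results of these data known. Named genes were the 3 alpha-1 transcripts, further calcium channel subunits with a readable symbol, the 2 transcripts of each other list (neurons, retina, muscle, pancreas, presynaptic release, calcium handling) with the smallest unadjusted p in HH versus HC where none was called, and the 5 transcripts most like each alpha-1 transcript. Symbols came from the first 1299 rows of a supplementary table of the paper, and its statistics were not used. Alternatives covered the tool (DESeq2, limma-voom, edgeR's newer quasi-likelihood form), RLE scaling, the filter (none, or without groups), unsummed entries, a prior count of 0.25, a replicate block, pairwise fits, another marker summary and each larva left out. A fit without CC 5 and HH 6 together was added after seeing the data.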

Additional observations from a re-analysis of the deposited data

Results flagged for a closer look

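In 12 groups of 6 larvae (3 alpha-1 transcripts in 4 groups), 2 larvae stood apart from the others by Dixon's ratio of the gap to the nearest larva over the range (critical value 0.625), and chance alone marks about 1 group in 20. CAC1A was 81.0 CPM in HH 6, where the next HH larva had 63.5 CPM (ratio 0.653). CAC1D was 40.2 CPM in CC 5, where the next CC larva had 29.4 CPM (ratio 0.669). Both larvae were the highest of their group for all 3 alpha-1 transcripts, and without HH 6 the HH versus HC difference was 0.27 for CAC1A, 0.23 for CAC1D and 0.21 for CAC1E.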

How the results depend on the processing

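Of 1861 values recomputed under the alternatives, 1845 kept their direction and their side of the threshold or, for a value without a test, moved by less than the spread between larvae. Many of these could hardly change, such as a group mean with a larva of another group left out. The count is therefore no measure of robustness. In CH versus CC, described without a test, the CAC1D difference was 0.40 to 0.59 with each larva left out. In HH versus CC the CAC1D difference was 0.44 to 0.63 when each larva was left out in turn, and its call was lost without HH 6 (edgeR FDR=0.0528). In HH versus CH the CAC1D difference was -0.0338 to 0.121 with each larva left out, and was below 0 without CH 2 (-0.02), without HH 6 (-0.0338) and without CC 5 and HH 6 together (-0.0333). The CAC1D ratio to neuronal markers in HH versus HC was 0.0944 to 0.161 with each larva left out and no longer below 0.05 in 8 of these fits, without CC 5 and HH 6 together (0.12, exact permutation p=0.0996) or with the mean of log2 CPM over the markers (0.12, exact permutation p=0.136). The CAC1A and CAC1E correlation fell to 0.34 (permutation p=0.138) without CC 5 and HH 6 together. The cause was not tested. No alternative that was run called CAC1A, CAC1D or CAC1E in HH versus HC, where their lowest FDR was 0.225 (CAC1A, DESeq2).

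Replicate numbers showed no common pairing across groups: same-numbered larvae correlated from -0.390 to 0.369 (median -0.0366) over 36 pairs, 6 of them over 0.1. In 2 of the 36 the best match had the same number. Between CH and HC the values were 0.0894, 0.281, 0.369, 0.226, 0.304 and -0.181 in the order of the numbers. The check cannot show which larvae of a group shared a container. With the replicate block edgeR called 1296 transcripts in CH versus CC in place of 1597, 3 in place of 4 in HH versus HC, 1257 in place of 1520 in HH versus CC, 0 in place of 3 in HH versus CH, 18 in place of 50 in CH versus HC and 39 in place of 112 for the parental difference. In the block, the HH versus HC difference of CAC1D had an exact sign-flip p of 0.0625 (0.30) and CAC1A had an edgeR FDR of 0.332. DESeq2 called 64 transcripts in HH versus HC, 137 in HC versus CC, 216 in HH versus CH, 355 in CH versus HC, 4 for the interaction and 478 for the parental difference, none of them an alpha-1 transcript.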
